A study of Mus musculus with 6 samples.

Results

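The 78 genes described here are named for proteins of the mitochondrial ribosome and were chosen by that name, as every row of the deposited expression table whose symbol is Mrpl or Mrps followed by a number and at most 1 further letter. They are 78 of 15824 listed genes, 49 named for the large subunit (Mrpl) and 29 for the small subunit (Mrps), and no expression value was used to choose them. RNA sequencing was done on cells sorted by flow cytometry from lungs of mice aged 8 weeks and labelled alveolar macrophages, the phagocytes that live in the air spaces. The groups were 3 libraries from Men1 knockout mice (KO) and 3 from wild-type mice (WT), and the question was which genes depend on Men1, which encodes menin, a scaffold protein of histone methyltransferase complexes. The labels name no Cre driver, allele or sex. Nor do they tell if each library is a different animal, so the p-values reflect the spread of these libraries alone, and that spread may be technical.

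Mitochondrial ribosomes translate the few messenger RNAs made inside the organelle, which encode membrane subunits of the respiratory chain and of ATP synthase. Their proteins are all encoded in the nucleus, made in the cytosol and imported. Some descend from bacterial ribosomal proteins, and others exist only in mitochondria. The large subunit forms peptide bonds and holds the exit tunnel, and the small subunit decodes the messenger.

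Men1 was checked first. Its counts were 150, 149 and 165 in the KO libraries and 639, 594 and 603 in the WT libraries, a log2 fold change (KO over WT, as for every fold change given here) of -1.93 (SE 0.0684; edgeR, Benjamini-Hochberg adjusted p = 7.24e-24). Each library held 19955242 to 20151990 counts. Libraries of 1 group differed little, with a chi-square per gene of 1.37 to 1.60 within groups and 61.9 to 64.8 between them. Against this small spread, 8179 of 11817 genes tested, 69.2%, passed the adjusted threshold of 0.05. General macrophage markers were abundant, at a summed 14450 to 14585 CPM (counts scaled to library size with TMM factors) in KO and 9598 to 9739 CPM in WT. Of 16 alveolar macrophage markers, Ear2, Ear6, Fabp1 and Plet1 had at most 3 counts in every library and 3 are not in the table, and the 13 listed there summed to 1287 to 1328 CPM in KO and 397 to 412 CPM in WT. Marco made up most of the KO sum, at 1137 CPM in KO and 172 CPM in WT, and of the 8 tested 3 were higher and 4 lower (median log2 fold change -0.09). Siglecf, a surface marker of alveolar macrophages, had counts of 29, 27 and 23 in KO and 33, 47 and 46 in WT. The name alveolar macrophage is thus borne out by only part of its markers.

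Some properties of the libraries moved with the groups. All 15 proliferation markers were lower in KO, at a summed 483 to 491 CPM in KO and 1164 to 1166 CPM in WT. All 12 fibroblast markers were lower as well, at 20.5 to 23.2 CPM in KO and 110 to 114 CPM in WT, and each had more than 3 counts in at least 1 library. Neutrophil markers summed to 676 to 697 CPM in KO and 851 to 868 CPM in WT, and of the 4 tested 3 were higher and 1, Mmp8, was lower. The 4 Y-linked genes tested had 0 to 2 summed counts in KO and 3320 to 3445 in WT, so the sex of the sampled mice and the genotype cannot be told apart. The part of proliferation and of fibroblast or neutrophil RNA in the values below was not tested.

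Promoter sequences of the mitochondrial ribosomal genes show what many of them share beyond their names. RefSeq windows (build GRCm38.p6, 250 bases before to 50 after a transcript start) were found for 69 of the 78 genes, and were searched on both strands for the letters CCGGAAGT (a site of ETS factors such as GABP), CGCATGCG (a site of NRF1, the same on both strands) and AAGATGGC (a site of YY1). These factors are known regulators of nuclear genes for mitochondria. At least 1 of the motifs was present in 29 of 69, 42.0%, against 18.1% of the 9537 tested genes with a window and 9.03% of all 27025 genes with a window. The ETS motif was in 12 (17.4%, against 9.51% of the tested genes), the NRF1 motif in 7 (10.1%, against 4.47%) and the YY1 motif in 12 (17.4%, against 5.50%). No matches overlapped, and 8 of the 12 YY1 matches lay after the start on the strand of the gene.

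The sequences below are those of the genes with the highest and the lowest fold change, followed by 3 that hold 1 motif each close to the start. They run 5′ to 3′ on the strand of the gene, and capitals mark a motif or its reverse complement.
Mrpl52, chr14:54426659-54426908, plus strand, the 250 bases before the start: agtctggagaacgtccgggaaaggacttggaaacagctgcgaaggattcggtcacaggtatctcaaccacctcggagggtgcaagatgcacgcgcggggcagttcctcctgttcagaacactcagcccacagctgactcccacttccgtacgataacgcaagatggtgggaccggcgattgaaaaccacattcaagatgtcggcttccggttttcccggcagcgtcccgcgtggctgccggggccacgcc
Mrps12, chr7:28741822-28742071, minus strand, the 250 bases before the start, with the YY1 motif reversed: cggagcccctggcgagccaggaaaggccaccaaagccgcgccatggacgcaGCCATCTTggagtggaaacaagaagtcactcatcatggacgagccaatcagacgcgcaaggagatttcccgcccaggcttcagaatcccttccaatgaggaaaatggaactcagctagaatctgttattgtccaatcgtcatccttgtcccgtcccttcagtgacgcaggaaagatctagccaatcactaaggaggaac
Mrps22, chr9:98601680-98601739, minus strand, the ETS motif: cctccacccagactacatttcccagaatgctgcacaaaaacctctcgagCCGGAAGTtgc
Mrpl17, chr7:105811088-105811147, minus strand, the NRF1 motif: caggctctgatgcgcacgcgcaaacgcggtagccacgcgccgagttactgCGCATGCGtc
Mrps18a, chr17:46111008-46111031, plus strand, the YY1 motif just after the start: gcgttccAAGATGGCggccctcag
In Mrpl52 the stretch before the start held none of the 3 motifs, and an ETS match lay just after the start.

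The motifs were found whatever the fold change. At least 1 was present in the windows of 7 of 20 genes higher in KO, of 7 of 14 genes lower in KO and of 15 of 35 genes that did not pass the test. A match is only a run of letters and does not show that a factor binds there.

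Most mitochondrial ribosomal genes differed little between KO and WT. All 78 passed the low-count filter, with mean counts of 204 to 1406 per library (median 614). In KO, 25 were higher and 15 were lower, and 38 did not pass the test, so that 51.3% were called against 69.2% of all genes tested (34.4% higher and 34.9% lower). Their median log2 fold change was 0.05, against 0.00 over all genes, and their interquartile range was 0.19 against 0.48. An absolute log2 fold change under 0.2 was found for 59 of the 78 (75.6%), against 42.9% of all genes. Changes of at least 1.25-fold that passed the test numbered 5 (6.41%), against 36.5% of all genes (18.0% higher and 18.5% lower). At 1.5-fold only Mrpl52 among the 78 was higher and only Mrps12 was lower, where 8.4% of all genes were higher and 9.39% lower. None reached 2-fold, against 3.26% of all genes higher and 4.94% lower.

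The spread within the groups was like that of other genes of the table. The median coefficient of variation over the 78 genes was 3.90% in KO and 4.09% in WT, and over all genes tested 4.0% in KO and 3.91% in WT. The CPM ranges of the groups did not overlap for 40 of the 78 (51.3%, against 71.2% of all genes). These 40 and the 40 that passed the test were not the same genes: 4 that were higher (Mrpl17, Mrpl23, Mrpl55 and Mrps11) had overlapping ranges, and 4 with separate ranges (Mrpl20, Mrpl50, Mrpl58 and Mrps23) did not pass.

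**Figure D1:**
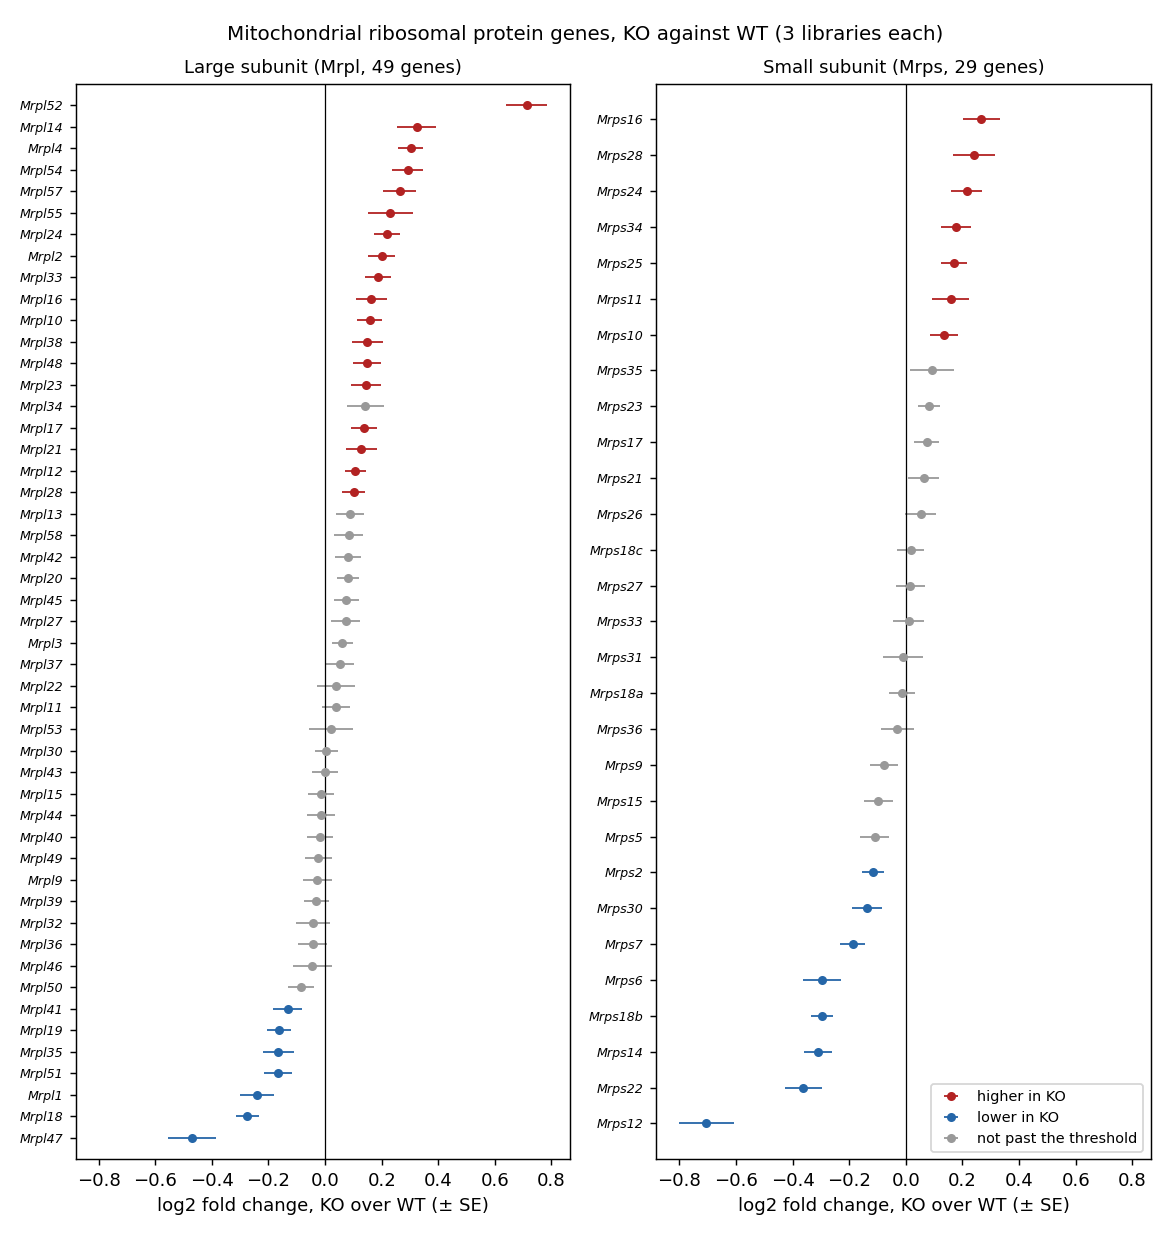
Log2 fold change, KO over WT, with its SE (bars) for the 49 genes named for the large subunit (left) and the 29 named for the small subunit (right), from edgeR on 3 libraries per group. Red points are higher in KO, blue points lower, grey points did not pass the adjusted threshold of 0.05; Mrpl52 (0.71) and Mrps12 (-0.71) stand apart from the rest.

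Mrpl52, a large subunit protein found only in mitochondria, had the highest fold change. Its counts were 371, 356 and 419 in KO against 225, 250 and 252 in WT. Every KO library stood above every WT library. The mean was 19.5 ± 1.67 CPM in KO and 11.9 ± 0.719 CPM in WT (SD, n = 3 each), a 1.64-fold higher level (log2 fold change 0.71, SE 0.0727; edgeR, Benjamini-Hochberg adjusted p = 8.41e-11). Per unit of length it stood at 266, 240 and 280 TPM (a share of transcripts, scaled to gene length and to a common total) in KO and 176, 180 and 182 TPM in WT, with no overlap.

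Mrpl14 and Mrpl4, large subunit proteins with bacterial counterparts, followed. Mrpl4 lines part of the exit tunnel in bacterial ribosomes, and Mrpl14 lies where the subunits meet. Mrpl14 had counts of 357, 350 and 317 in KO and 272, 280 and 298 in WT, a log2 fold change of 0.32 (SE 0.0688; edgeR, adjusted p = 8.69e-05). Mrpl4 had 922, 862 and 849 in KO and 735, 747 and 737 in WT, a log2 fold change of 0.30 (SE 0.0437; edgeR, adjusted p = 1.66e-07). For both genes the lowest KO library stood above the highest WT library. Mrpl14 overlaps the coding gene Tmem63b, and counts of overlapping genes are uncertain here because no source says if the counting used strand.

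The next 5 genes were 1.17- to 1.22-fold higher. Mrpl54 had counts of 497, 482 and 493 in KO and 435, 398 and 417 in WT (log2 fold change 0.29, SE 0.0559). Mrpl57 had 434, 458 and 472 in KO and 374, 405 and 402 in WT (0.26, SE 0.0589). Both encode large subunit proteins without a bacterial counterpart, and their groups did not overlap. In the small subunit, Mrps16 had 382, 350 and 404 in KO and 319, 323 and 340 in WT (0.27, SE 0.0653), and Mrps28 had 341, 332 and 333 in KO and 265, 283 and 337 in WT (0.24, SE 0.0731). By counts and CPM the groups did not overlap in Mrps16. In Mrps28 WT library 3 overlapped the KO libraries in raw counts but not in CPM. In TPM the groups overlapped for both genes. Mrpl55 had 249, 292 and 283 in KO and 269, 231 and 230 in WT (0.23, SE 0.0798; edgeR, adjusted p = 0.0107). Its KO library 1 lay below WT library 1, and the call was lost without KO library 2 (0.18) or WT library 3 (0.19). On log2(TPM + 1) values only Mrpl54 of these 5 genes passed (limma, adjusted p = 0.0195).

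Mrps12, a small subunit protein at the decoding centre, had the lowest fold change. Its counts were 125, 157 and 178 in KO against 249, 285 and 246 in WT. No KO library reached the lowest WT library, and the KO libraries varied by more than the WT libraries did on the relative scale. The mean was 7.81 ± 1.37 CPM in KO and 12.7 ± 1.1 CPM in WT (SD, n = 3 each), a 1.63-fold lower level (log2 fold change -0.71, SE 0.0965; edgeR, Benjamini-Hochberg adjusted p = 5.74e-08). Sars2, the mitochondrial seryl-tRNA synthetase gene, starts within 1000 bases of Mrps12 on the other strand, and its log2 fold change was -0.11 (SE 0.0899; edgeR, adjusted p = 0.297).

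Mrpl47, a large subunit protein at the exit of the tunnel, had the lowest fold change of its subunit. Its counts were 166, 179 and 157 in KO against 225, 253 and 245 in WT, and the groups did not overlap. The level was 1.39-fold lower (log2 fold change -0.47, SE 0.0848; edgeR, adjusted p = 8.63e-06). Mrpl47 had the lowest mean count of the 78 genes, 204, and overlaps the coding genes Actl6a and Ndufb5, which did not pass the test.

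Small subunit proteins made up 4 of the next 6. Mrps22, a protein without a bacterial counterpart that is linked to mitochondrial disease in humans, had 342, 318 and 339 in KO and 487, 439 and 410 in WT (log2 fold change -0.36, SE 0.0655). Mrps14 had 656, 612 and 641 in KO and 788, 892 and 781 in WT (-0.31, SE 0.0503), and Mrps18b had 859, 884 and 893 in KO and 1142, 1122 and 1102 in WT (-0.30, SE 0.0395). All KO libraries were below all WT libraries in these 3 genes. Mrps6 had 285, 335 and 305 in KO and 384, 386 and 411 in WT (-0.30, SE 0.0665), and it overlaps Slc5a3, a solute carrier gene with a log2 fold change of -1.53. In the large subunit, Mrpl18 had 916, 945 and 887 in KO and 1094, 1175 and 1186 in WT (-0.27, SE 0.041), and Mrpl1 had 357, 333 and 339 in KO and 411, 434 and 418 in WT (-0.24, SE 0.0605). Mrpl18 belongs to the central protuberance and overlaps the chaperonin gene Tcp1 (log2 fold change -0.17, lower in KO), and Mrpl1 belongs to a mobile stalk. Neither had overlapping groups.

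**Figure D2:**
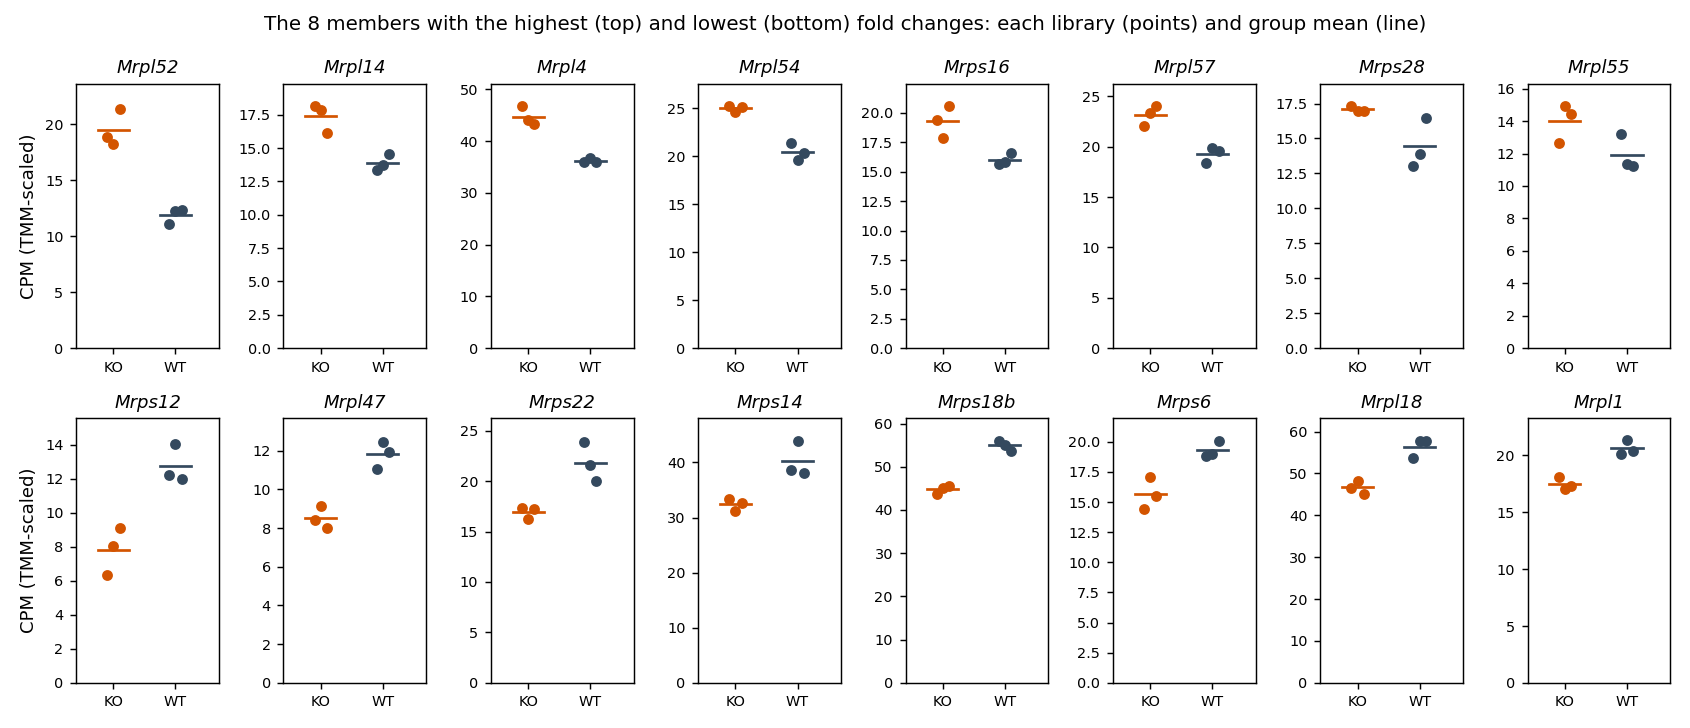
CPM of the 8 genes with the highest (top row) and the 8 with the lowest fold change (bottom row) among those that passed the test, KO left of WT; points are libraries, lines are group means, and each axis starts at 0. The groups are apart in every panel except Mrpl55, where KO library 1 lies within the WT range.

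Of the other genes that passed, 13 were higher, with log2 fold changes of 0.10 to 0.22, when the 12 described with their own values are left aside. In the same way 5 were lower, with log2 fold changes of -0.19 to -0.12 (Mrpl19, Mrpl41, Mrpl51, Mrps2 and Mrps7). The 38 genes that did not pass had log2 fold changes of -0.11 to 0.14. Mrpl11, Mrpl30, Mrpl43, Mrps27 and Mrps33 are examples within 0.05 of 0. A test that misses the threshold does not show that the levels were equal.

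The groups of proteins by place in the ribosome were small, and they are described by counts alone, to be read against 34.4% of all genes tested higher and 34.9% lower. Among the 30 large subunit genes with a bacterial counterpart, 13 were higher (43.3%) and 5 lower (16.7%), with a median log2 fold change of 0.08. Among the 19 large subunit genes found only in mitochondria, 5 were higher (26.3%) and 2 lower (10.5%), with a median of 0.02. In the stalk that binds translation factors (Mrpl10, Mrpl11, Mrpl12, Mrpl53 and Mrpl54), 3 of 5 were higher, and the log2 fold changes of all 5 lay between 0.02 and 0.29. In a list of proteins around the outer end of the exit tunnel (Mrpl17, Mrpl22, Mrpl23, Mrpl24, Mrpl45 and Mrpl47), which does not hold Mrpl4, 3 of 6 were higher, and Mrpl47 was lower. In the central protuberance, 3 of 7 were higher (Mrpl38, Mrpl48 and Mrpl55), and Mrpl18 was lower.

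In the small subunit, 5 of the 16 genes with a bacterial counterpart were higher and 5 lower (median -0.03), and 2 of the 10 found only in mitochondria were higher and 2 lower (median 0.03). Each of these shares was below those of all genes tested. Higher genes were Mrps10, Mrps11, Mrps16, Mrps24 and Mrps28 in the first class and Mrps25 and Mrps34 in the second. Lower genes were Mrps2, Mrps6, Mrps7, Mrps12 and Mrps14 in the first and Mrps18b and Mrps22 in the second.

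Several genes were described for their roles whatever their fold change. Mrpl12, the stalk protein that contacts translation factors, had counts of 1260, 1272 and 1343 in KO and 1285, 1248 and 1209 in WT (log2 fold change 0.11, SE 0.0377; edgeR, adjusted p = 0.0125). The raw counts overlapped, the CPM values did not, and the call was lost without WT library 3 (0.08) or KO library 3 (0.08). On the log2(TPM + 1) scale its difference was -0.04. Mrpl45, which ties the ribosome to the inner membrane, had 973, 929 and 904 in KO and 875, 905 and 989 in WT (0.08, SE 0.0441; edgeR, adjusted p = 0.128), with overlapping groups. It passed only when WT library 3 was left out (0.13).

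The 3 Mrps18 genes are paralogs that sit at different places of the ribosome, and they had different values. Mrps18b was lower, as described above. Mrps18c had counts of 620, 646 and 646 in KO and 629, 673 and 662 in WT (log2 fold change 0.02, SE 0.0476; edgeR, adjusted p = 0.761). Mrps18a had 727, 675 and 693 in KO and 742, 737 and 718 in WT (-0.01, SE 0.0454; edgeR, adjusted p = 0.82). The groups overlapped in CPM for Mrps18a and Mrps18c and did not for Mrps18b.

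Names and structure disagree for 3 of the Mrps genes. Mrps18a and Mrps30 encode proteins of the large subunit, and Mrps36 encodes a subunit of the oxoglutarate dehydrogenase complex. Mrps30 had counts of 500, 463 and 509 in KO and 583, 545 and 554 in WT (log2 fold change -0.14, SE 0.0533; edgeR, adjusted p = 0.0232). Mrps36 had 392, 422 and 435 in KO and 454, 447 and 425 in WT (-0.03, SE 0.059; edgeR, adjusted p = 0.663). KO and WT were apart for Mrps30 and overlapped for Mrps36, and the call of Mrps30 was lost without WT library 1 (-0.11) or KO library 2 (-0.10).

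The large and small subunits were then set side by side. In the large subunit 18 of 49 were higher (36.7%, against 34.4% of all genes) and 7 lower (14.3%, against 34.9%), with a median log2 fold change of 0.07 (interquartile range 0.17). In the small subunit 7 of 29 were higher (24.1%) and 8 lower (27.6%), with a median of 0.01 (interquartile range 0.21). The small subunit median was -0.01 without WT library 1 or WT library 3 and 0.04 without WT library 2. On the log2(TPM + 1) scale the medians were -0.08 for the large and -0.14 for the small subunit, where the median of all genes tested was -0.12. When genes were assigned by structure, 18 of 51 large subunit genes were higher and 8 lower (median 0.06), and 7 of 26 small subunit genes were higher and 7 lower (median 0.02).

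Summed levels per length were larger for the large subunit in every library. These sums run over more genes for the large subunit and do not compare levels per gene. The 49 large subunit genes summed to 3258, 3212 and 3248 TPM in KO and 3353, 3286 and 3279 TPM in WT, and the 29 small subunit genes to 1749, 1736 and 1748 TPM in KO and 1960, 1965 and 1895 TPM in WT. The KO libraries were below the WT libraries in both sums. The means differed by -2.00% for the large subunit (3240 ± 24.1 TPM in KO, 3306 ± 41.1 TPM in WT) and by -10.1% for the small subunit (1745 ± 7.41 TPM in KO, 1940 ± 39.5 TPM in WT; SD, n = 3 each). TPM values of the KO libraries ran lower in general, with a median log2 fold change of -0.12 over all genes tested and -0.10 over the 78. On that scale limma called 5 of the 78 higher (20.8% of all genes) and 33 lower (48.9% of all genes), with 5 higher and 16 lower in the large subunit and 0 higher and 17 lower in the small subunit. In the deposited FPKM values, which are not brought to a common total, the sum of the large subunit was 3.69% higher in KO and that of the small subunit differed by -4.85%. The direction of the large subunit sum thus turned with the unit.

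The ratio of the summed levels does not depend on that scaling. Large over small was 1.86, 1.85 and 1.86 in KO and 1.71, 1.67 and 1.73 in WT by TPM, and 1.95 ± 0.00129 in KO and 1.84 ± 0.0329 in WT by CPM (SD, n = 3 each). With all 78 genes, every KO library had a higher ratio than every WT library. The difference of the mean ratios, KO minus WT, was 0.153 by TPM and 0.107 by CPM. Without Mrpl52 it was 0.0950 by TPM and 0.0975 by CPM, and without the 7 genes of very short counted length 0.0886 by TPM and 0.0948 by CPM.

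**Figure D3:**
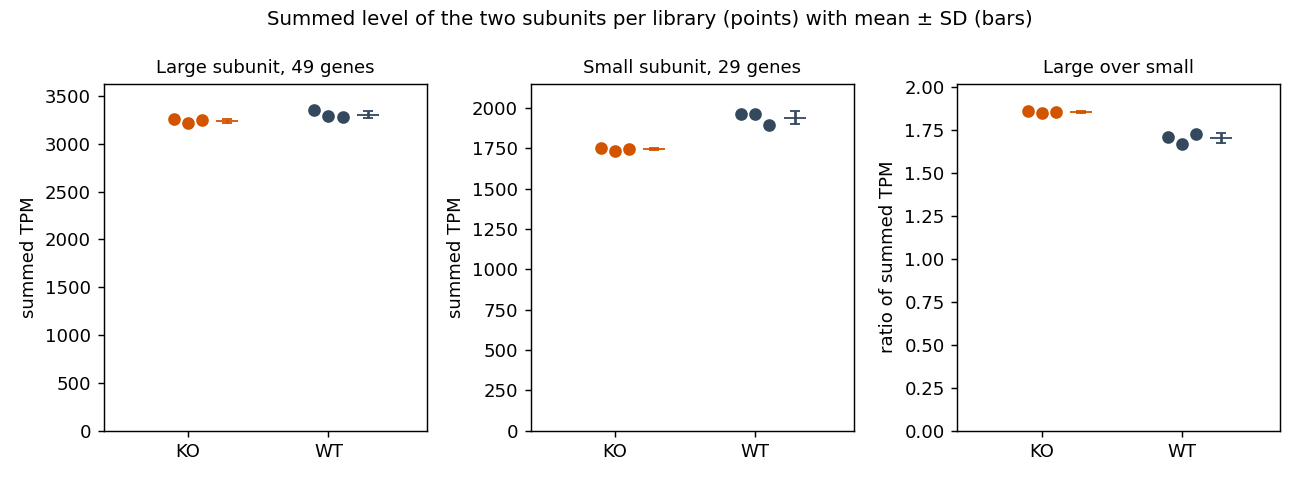
Summed TPM of the large subunit genes (left) and the small subunit genes (middle) and their ratio (right), KO left of WT; points are libraries, bars are the mean ± SD of 3, and each axis starts at 0. The ratio is 1.85 to 1.86 in KO and 1.67 to 1.73 in WT.

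The abundance of the single genes kept nearly the same order in both groups. The median level was 49.3 TPM in KO and 52.6 TPM in WT over the 78 genes, against 13.5 TPM in KO and 14.97 TPM in WT over all genes tested. The Spearman correlation of the mean TPM in KO with that in WT was 0.980 across the 78 genes, which share the same libraries and gene lengths and are not independent. In both groups 11 genes exceeded 100 TPM and 8 stayed under 20 TPM.

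Mrpl33, a short protein of the large subunit with a bacterial counterpart, was the most abundant per length, at 332, 310 and 312 TPM in KO and 330, 312 and 295 TPM in WT. Mrps21 followed at 273, 252 and 259 TPM in KO and 304, 291 and 246 TPM in WT, and Mrps18c at 241, 242 and 240 TPM in KO and 265, 268 and 264 TPM in WT. In TPM the groups overlapped for Mrpl33 and Mrps21 and not for Mrps18c. In CPM they overlapped for Mrps21 and Mrps18c and not for Mrpl33. By counts, Mrpl33 was higher in KO (log2 fold change 0.19, SE 0.0468; edgeR, adjusted p = 0.000602), and Mrps21 did not pass (0.06, SE 0.0539; edgeR, adjusted p = 0.301). Mrps18c also did not pass by counts, and its log2 fold change was -0.14 on the log2(TPM + 1) scale.

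The least abundant genes per length were Mrpl17, Mrpl35 and Mrps25. Mrpl17, a protein of the tunnel exit, stood at 9.06, 9.98 and 9.47 TPM in KO and 8.95, 9.52 and 10.04 TPM in WT. Mrpl35 stood at 9.07, 9.87 and 9.32 TPM in KO and 11.2, 11.7 and 12.04 TPM in WT, and Mrps25 at 10.9, 11.3 and 10.4 TPM in KO and 10, 11.3 and 10.6 TPM in WT. Mrpl35 alone of these 3 had groups that did not overlap in TPM, and in CPM the groups of Mrps25 did not overlap either. By counts Mrpl17 (log2 fold change 0.14, SE 0.0455) and Mrps25 (0.17, SE 0.045) were higher in KO and Mrpl35 (-0.16, SE 0.0537) was lower. The call of Mrpl17 was lost without WT library 1 (0.10) or KO library 2 (0.11).

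TPM divides counts by length, and the length used differed widely between these genes. The length implied by the deposited counts and FPKM values was 95.9 bases for Mrpl52, 142 for Mrpl33, 158 for Mrps21 and 174 for Mrps18c. The longest annotated transcripts of these genes have 463, 478, 488 and 820 bases. For Mrpl17 the implied length was 6378 bases. A short implied length raises the TPM of a gene, so the TPM levels of the 7 genes under 300 bases (Mrpl14, Mrpl33, Mrpl52, Mrpl53, Mrpl54, Mrps18c and Mrps21) are uncertain.

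Position in the genome was looked at for its effect on the counts. The 78 genes lie on 17 chromosomes, with none on X or Y and 11 on chromosome 11. In GENCODE annotation (release M21, GRCm38) 26 overlap another coding gene, and Mrpl46 and Mrps11 overlap each other. A coding neighbour on the opposite strand that starts at most 1000 bases upstream, or only slightly inside the gene, was found for 19. Of these 19, 4 are also among the 26, and Mrpl46 and Mrps11, which lie on opposite strands, are not among the 19. Pairs of these 19 genes with such a neighbour had both genes tested in 18. Both genes passed the test in the same direction in 6 of the 18 and in opposite directions in 1. Of the neighbours in these pairs 11 passed, where 69.2% of all genes tested did. Mrpl54 and Apba3 were both higher (log2 fold change 0.31 for Apba3), Mrps18b and Ppp1r10 were both lower (-0.11 for Ppp1r10), and Mrpl51 and the condensin gene Ncapd2 were both lower (-0.75 for Ncapd2). Mrpl57 was higher while the mitotic gene Ska3 was lower (-0.79). Pairs of overlapping genes with both tested numbered 25, with Mrpl46 and Mrps11 counted once from each side. Both genes passed in the same direction in 6 of them and in opposite directions in 2. Of the overlapping neighbours in these 25 pairs 12 passed, where 69.2% of all genes tested did. Shared control of neighbouring genes was not tested.

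Other genes of mitochondrial protein synthesis were compared by the same fit. Of 5 further mitochondrial ribosomal proteins whose symbols do not follow the Mrp pattern, Aurkaip1 was higher and Ptcd3 lower. Thus 2 of the 5 were called, a smaller share than the 69.2% of all genes tested (34.4% higher and 34.9% lower). Aurkaip1 had 885, 893 and 846 counts in KO and 707, 765 and 765 in WT (log2 fold change 0.29), and Ptcd3 had 671, 669 and 616 in KO and 802, 840 and 798 in WT (-0.26). KO and WT did not overlap in either gene, and Chchd1 was the nearest of the other 3 to the threshold (-0.09; edgeR, adjusted p = 0.15).

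Fold changes of factors that assemble the mitochondrial ribosome were spread more widely than those of the 78 genes. Of 27 tested, 10 were higher (37.0%, against 34.4% of all genes) and 6 lower (22.2%, against 34.9%), with a median log2 fold change of 0.05. Their interquartile range was 0.43, against 0.19 over the 78 genes. They ran from -0.38 to 0.61, within the extremes of the 78 genes (-0.71 and 0.71). Rbfa, which helps mature the small subunit, had counts of 998, 965 and 937 in KO and 710, 646 and 672 in WT (log2 fold change 0.57; edgeR, adjusted p = 7.92e-14). Mettl17, a small subunit assembly factor, had 144, 163 and 147 in KO and 113, 91 and 106 in WT (0.61; edgeR, adjusted p = 7.1e-06). Fastkd2, an RNA-binding protein of large subunit assembly, had 431, 407 and 432 in KO and 600, 513 and 585 in WT (-0.36; edgeR, adjusted p = 1.24e-06). The groups did not overlap in any of these 3 genes.

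Among 15 translation factors and partners, 2 were higher (13.3%, against 34.4% of all genes) and 7 lower (46.7%, against 34.9%), with a median log2 fold change of -0.15. Oxa1l, which inserts new proteins into the inner membrane, had counts of 1083, 1119 and 1083 in KO and 864, 839 and 883 in WT (0.40; edgeR, adjusted p = 4.2e-11). Mtif2, the initiation factor, had 437, 433 and 429 in KO and 638, 548 and 627 in WT (-0.42; edgeR, adjusted p = 3.57e-08), and the elongation factor Gfm1 had 1212, 1244 and 1311 in KO and 1583, 1532 and 1560 in WT (-0.26; edgeR, adjusted p = 9.69e-08). In Oxa1l all KO libraries were above all WT libraries, and in the other two all were below.

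Of 20 genes for charging mitochondrial tRNAs, 5 were higher and 4 lower, which is 45.0% called against 69.2% of all genes (median log2 fold change 0.02). Gatc, a subunit of the glutaminyl-tRNA amidotransferase, had 526, 490 and 536 counts in KO and 383, 336 and 319 in WT (0.64), and Mars2, the methionyl-tRNA synthetase, had 181, 158 and 171 in KO and 275, 284 and 300 in WT (-0.70). Neither had overlapping groups. None of 10 genes for transcription and replication of mitochondrial DNA passed edgeR's test after adjustment, and 1, Mterf1a, had an unadjusted p under 0.05; DESeq2 also called 0 and limma-voom 0, while limma on log2(TPM + 1) called 4. Tfam, the packaging and transcription factor of mitochondrial DNA, had 483, 457 and 475 counts in KO and 524, 539 and 482 in WT (-0.07; edgeR, adjusted p = 0.259).

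Nuclear regulators of mitochondrial genes were lower for 6 of the 9 tested (66.7%, against 34.9% of all genes) and higher for 1 (11.1%, against 34.4%), with a median log2 fold change of -0.18. Myc, a transcription factor of growth, had counts of 748, 733 and 691 in KO and 1415, 1431 and 1355 in WT (-0.90; edgeR, adjusted p = 1.86e-20), and the coactivator gene Pprc1 had 1003, 1059 and 1021 in KO and 1248, 1268 and 1391 in WT (-0.29; edgeR, adjusted p = 1.31e-07). The nuclear receptor gene Esrra was higher, with 852, 868 and 905 in KO and 706, 779 and 778 in WT (0.27; edgeR, adjusted p = 2.56e-06). Nrf1 (-0.19), Gabpa (-0.18) and Yy1 (-0.11), whose sites were searched in the promoters above, were lower in KO. Ppargc1a, the coactivator PGC-1 alpha, did not pass the low-count filter.

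**Figure D4:**
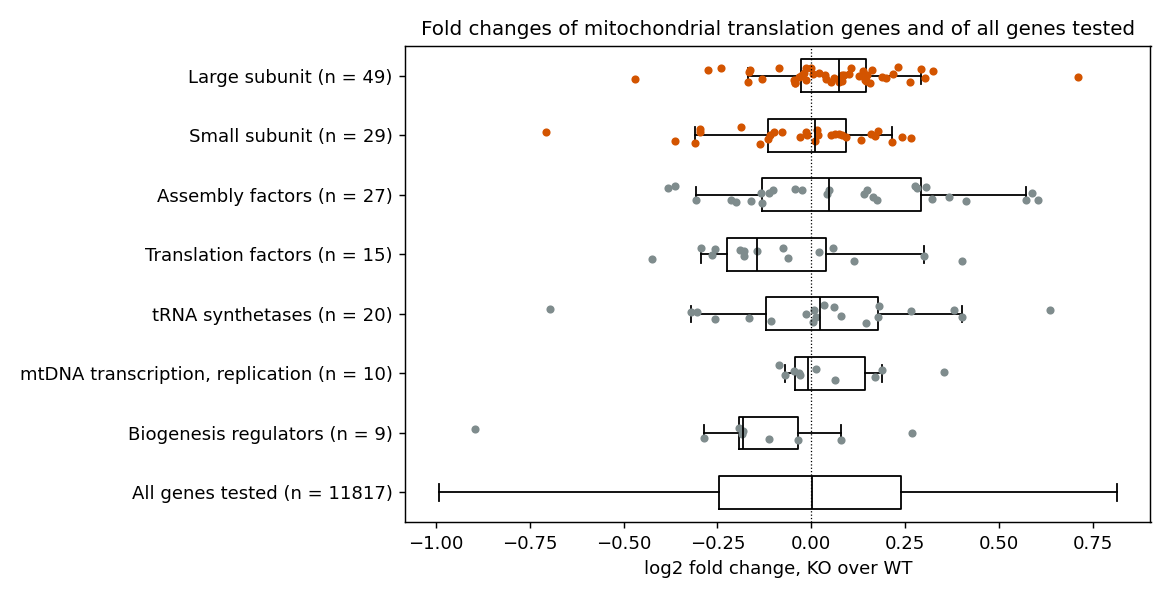
Log2 fold change, KO over WT, of the large and small subunit genes (orange), of 5 lists of related genes (grey) and of all 11817 genes tested. Points are genes, boxes give the median and quartiles, and whiskers run over the 5th to the 95th percentile; the boxes of both subunits are narrower than that of all genes (interquartile ranges 0.17 and 0.21 against 0.48).

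The number of genes called depended on how much the samples were taken to vary. The common biological coefficient of variation was 1.66%. With an assumed coefficient of 0.1, 3 of the 78 genes were higher (Mrpl52, Mrpl14 and Mrpl4; 18.4% of all genes) and 5 lower (Mrps12, Mrpl47, Mrps22, Mrps14 and Mrps18b; 18.8% of all genes). Leaving out each library in turn, 27 of the 40 calls were kept every time. In bulk samples, fewer cells of a type and less RNA per cell cannot be told apart. The authors' deposited table of genes drawn in a heat map holds 25 of the 78 genes, 32.1%, against 56.1% of all genes tested.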

How the data were processed

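PolyA-selected RNA of sorted cells was sequenced in 3 KO and 3 WT libraries, per the labels' protocols. The submitters' processing notes name Bowtie2, HISAT and build GRCm38.p6. What each tool did, the counter and its annotation are not stated in the notes used. The deposited expected counts are the authors' estimates per gene. They were rounded to whole numbers, since 8.66% to 9.19% of genes had fractions. TPM and FPKM are the authors' values, per the file headers. A deposited normalised read count signal was not used. The deposited heat map table holds the authors' log2 values and served only for its gene names.

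Counts were compared between KO and WT with edgeR 4.0.16 in R 4.3.3 (quasi-likelihood test, TMM scaling, filterByExpr, group only). P-values were adjusted by Benjamini-Hochberg over 11817 genes tested, and 4007 genes were filtered out. The edgeR steps were tested on simulated data. Alternatives were DESeq2 1.42.0, limma 3.58.1 on counts (voom), on log2(TPM + 1), log2(TPM + 0.1) and log2(FPKM + 1), other scalings and filters, a replicate block, an assumed coefficient of variation and leaving out each library. Sums, medians, ratios and shares of promoters with a motif are descriptions with no test. CPM is relative to TMM-scaled library sizes. Promoter windows come from RefSeq and overlaps from GENCODE. Python 3.11.15, pandas 2.3.3, SciPy 1.17.1 and matplotlib 3.10.9 were used besides.

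The genes, lists and tests were chosen with earlier results of these data known, although the 78 genes were taken by symbol alone. Values are given for the 8 highest and the 8 lowest fold changes among genes past the threshold, the 3 most and the 3 least abundant by TPM, and Mrpl12, Mrpl45, Mrps18a, Mrps18b, Mrps18c, Mrps30 and Mrps36; other lists are shown by up to 3 genes of smallest p. Further genes were named after their values were seen. Libraries of a group differed beyond counting noise and each counted as 1 sample. Mitochondrially encoded transcripts are not analysed here.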

Additional observations from a re-analysis of the deposited data

How the results depend on the processing

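Counts of called genes moved with the scaling and the assumed spread. The main counts of 25 higher and 15 lower became 14 higher and 19 lower with library totals only, 15 and 11 with DESeq2, 12 and 22 with limma on log2(FPKM + 1), 5 higher and 33 lower with limma on log2(TPM + 1) or log2(TPM + 0.1), and 4 higher and 32 lower with log2(TPM + 1) and no filter. Counts over all 11817 genes tested moved too, from 4060 higher and 4119 lower in the main fit. They were 3391 and 4829 with library totals only, 3510 and 3527 with DESeq2, and 3229 and 4677 with log2(FPKM + 1). With log2(TPM + 1) they were 2463 and 5781, and with log2(TPM + 0.1) 2466 and 5786. Without a filter, 2410 of 15824 genes were higher and 5915 lower on log2(TPM + 1). When the coefficient of variation was set to 0.1, 4406 genes in all, 3 higher and 5 lower of the 78 were called. The median over all genes was -0.06 with library totals only, -0.12 with log2(TPM + 1), -0.14 with log2(TPM + 0.1) and -0.05 with log2(FPKM + 1).

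The medians shifted with it. That of the large subunit was 0.0165 with library totals only, 0.00216 with FPKM, -0.0784 with log2(TPM + 1), filtered or not, -0.0793 with log2(TPM + 0.1), and 0.0609 by structure. That of the small subunit was -0.0474 with library totals only, -0.0586 with FPKM and -0.14 with TPM. Without 1 library, 19 to 24 were higher and 13 to 17 lower, and the medians ranged from 0.0517 to 0.0837 for the large and from -0.0102 to 0.0402 for the small subunit. Over all genes tested without 1 library, 3869 to 3970 were higher and 3886 to 3965 lower. Summed FPKM differed by 3.69% for the large subunit and -4.85% for the small. Mrps18c turned to -0.14 with TPM and -0.0586 with FPKM, and Mrpl12 to -0.0372 with log2(TPM + 1) and -0.0374 with log2(TPM + 0.1). The causes of these shifts were not tested.

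The difference of the ratios was 0.0950 without Mrpl52, 0.0886 without 7 short genes by TPM, alternatives chosen after seeing the data. Leaving out the 16 genes chosen by fold change gave 0.0588 by TPM and 0.0396 by CPM, a choice made on the differences themselves. By CPM the ratios of the groups then overlapped, with KO library 1 at 2.064 and WT library 3 at 2.065. Libraries of the same replicate number had correlations of -0.0178, 0.0278 and 0.0193. With 3 libraries per group these values cannot show whether the numbers pair the samples. A replicate block gave 27 higher and 16 lower. Depth left every gene with a mean count of at least 204.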
